A study of Mus musculus with 6 samples.

Results

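Ion channel genes were followed in podoplanin-positive cancer-associated fibroblasts (pCAFs) from mouse breast tumours, in a comparison of cells with and without the surface protein Ly6C. The set held every gene of the deposited table whose symbol belongs to the potassium (Kcn), calcium (Cacn), sodium (Scn), TRP, Piezo, anoctamin, chloride (Clcn, Clic), P2X, Orai, inositol trisphosphate receptor or ryanodine receptor families, with Abcc9 and Pkd2 added. It came to 76 of 12235 genes, all of them annotated as protein coding. One of the 76, Trpc4ap, encodes a TRPC4-associated protein and no channel. No member was chosen by its values.

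There were 3 Ly6C+ and 3 Ly6C- libraries, each a 3′ end mRNA library of cells sorted as negative for Ter119, CD45, EpCAM and the dead-cell dye PI, and positive for PDPN. The tumours of both groups grew in 8-week-old BALB/c females from 100000 cells of 4T1, a BALB/c mammary carcinoma line, placed in the mammary fat pad. The labels name the line once as 4T1-GFP and once as 4T1-luc. They do not say whether a library came from 1 mouse or from several, so p-values measure the spread between these libraries, which may be technical.

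Ion channels are membrane proteins whose pores let potassium, sodium, calcium or chloride pass down their gradients. Fibroblasts are not excitable like nerve or muscle, but their channels set the membrane potential and admit the calcium that guides contraction, migration and matrix production. Many pores work with auxiliary subunits, which alter gating or carry the pore to the membrane. Piezo and some TRP channels open on mechanical force, P2X receptors open on extracellular ATP, and Orai channels open when the sensor STIM1 reports an empty calcium store.

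The Ly6C+ libraries held 2150531 to 2818269 reads and the Ly6C- libraries 1176909 to 1721480. Reads on the 76 genes made up 0.260%, 0.250% and 0.269% of the Ly6C+ libraries and 0.316%, 0.270% and 0.280% of the Ly6C- libraries, so most single members rest on few reads. The sort followed its labels, with Ly6c1 at 3102 ± 767 normalised counts in Ly6C+ and 77.2 ± 11.5 in Ly6C- pCAFs (SD, n = 3 each). Col1a1, Col1a2, Col3a1, Dcn, Thy1 and Pdgfra were at or above 205.7 in all 6 libraries. Other fibroblast markers were lower, with lowest values of 9.84 for Fap and 4.92 for Lum, both in Ly6C- replicate 1. Pdpn, the gene of the protein both groups were sorted on, averaged 209 ± 24.1 in Ly6C+ and 95.4 ± 41.3 in Ly6C- pCAFs. It passed as 2.19-fold higher in Ly6C+ pCAFs (adjusted p = 0.00915 by limma). Of 10 fibroblast markers, 5 were higher in Ly6C+ pCAFs (among them Dcn, 3.99-fold, Lum, 5.24-fold, and Pdgfra, 2.38-fold), 1 was lower (Pdgfrb, 2.4-fold higher in Ly6C- pCAFs) and 4 did not pass, and the part of this difference in the channel results was not tested. Epcam and Ptprc stayed at or below 2.95 and 4.88. Ly6C+ replicate 1 stood apart in 3 granulocyte marker genes, whose summed level was 689, 9.02 and 3.09 in the Ly6C+ libraries and 0 in all Ly6C- libraries. Epithelial and 4T1 markers summed to 7.93 to 39.4 in Ly6C+ and 65.6 to 299 in Ly6C- libraries, and endothelial markers to 21.8 to 38.4 in Ly6C+ and 18.4 to 136 in Ly6C- libraries. The tested endothelial markers passed in both directions. Tek was higher (18.5 in Ly6C+ against 1.16 in Ly6C- pCAFs), while Kdr (6.93 against 64.5) and Esam (1.42 against 17.5) were lower. The part of these cell types in the results was not tested.

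Values are the authors' normalised counts (reads divided by 1 size factor per library). They are not divided by gene length, since a 3′ library reads the end of each transcript, and the order of levels between genes is that of reads at transcript ends. Log2 fold changes are Ly6C+ minus Ly6C- of log2(value + 1), a scale on which changes of low genes are understated. A gene passed when its limma adjusted p was under 0.05 over the 9646 genes with a mean of at least 5. In sorted bulk samples, fewer cells of a type and less RNA per cell cannot be told apart.

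Of the 76 genes, 51 reached the level for testing and 25 lay under it. Among the 51 tested, 5 were higher and 9 lower in Ly6C+ pCAFs, and 37 did not pass. The 14 that passed are 27.5% of the tested members, while 17.1% of all tested genes passed. In the upward direction the shares were 9.80% of the members and 9.41% of all tested genes, and in the downward direction 17.6% and 7.66%. These shares were not compared by a test. The count of 14 dropped to 7 without Ly6C+ replicate 1, to 8 without Ly6C+ replicate 3 and to 8 without Ly6C- replicate 2, and was 12 to 14 without each of the others. Scaling each library to its total moved the median of all genes by −0.19 on the log2 scale and the share of upward calls over all genes to 37.4%, against 55.1% with the deposited scaling, while 5 members were higher and 10 lower. The members' median log2 fold change was 0.13, against 0.00 over all tested genes. Non-overlapping groups were found for 19 of the 51 members (37.3%), and for 33.1% of all tested genes.

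The genes that were higher in Ly6C+ pCAFs included Scn7a, Kcnj8, Kcnk5 and Clic4, and those that were lower were Kcnk12, Kcnq3, Cacna1h, P2rx7, Piezo2, Trpv2, Cacng7, Cacna1c and Clic1. The plot of single libraries shows no overlap between the groups for any of these 13. They were picked by a test on the same values, so this separation is no further support.

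**Figure D1:**
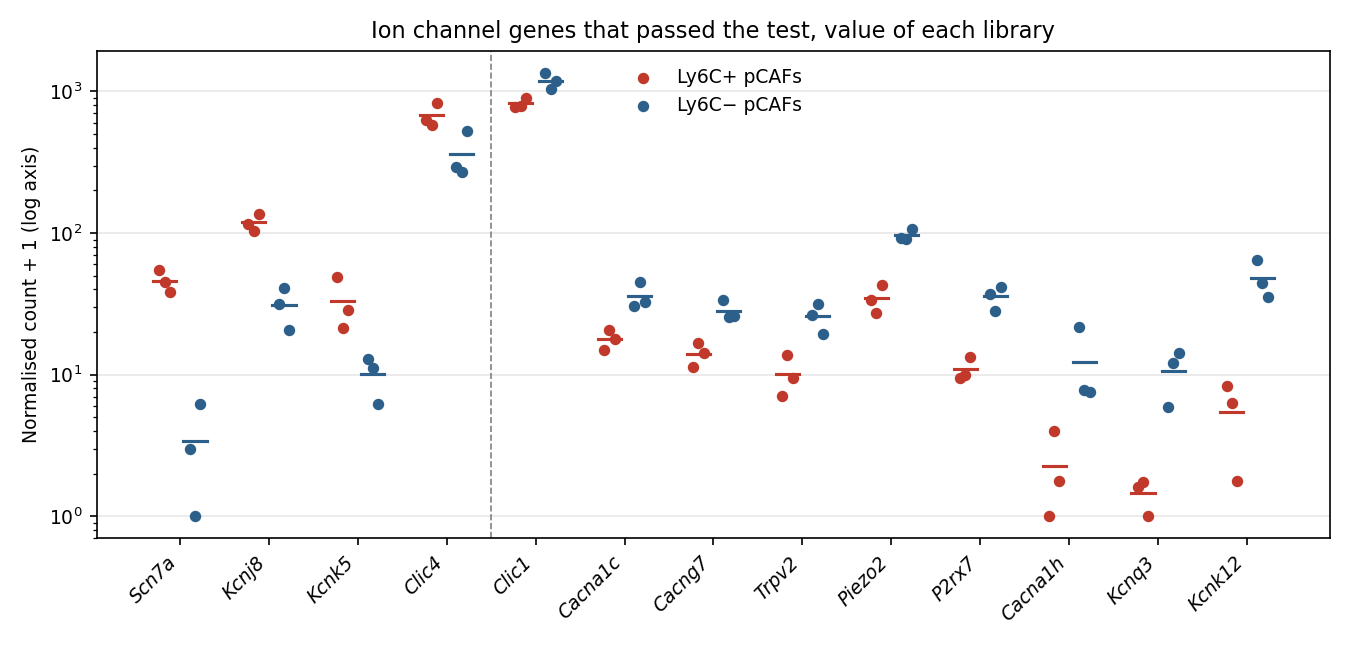
Normalised count plus 1 of each library (points, log axis) and group mean (bar) for 13 of the ion channel genes that passed the test, Ly6C+ pCAFs in red and Ly6C- pCAFs in blue, ordered by log2 fold change. The 4 genes left of the dashed line were higher in Ly6C+ pCAFs and the 9 right of it lower.

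The starts of the genes with the largest changes are shown so that the base composition and motifs at genes that moved in opposite directions can be read side by side. They are the 250 bases before the RefSeq start (GRCm38.p6) of the pair that was highest in Ly6C+ pCAFs and of the pair that was lowest, among the 10 called genes with a listed promoter. Capitals mark matches, on either strand, to the RUNX core TGTGGT, the AP-1 site TGANTCA, the GC box GGGCGG, the TATA box TATAAA and the TEAD site GGAATG. Scn7a lies at chr2:66784911-66785160 (minus strand), Kcnj8 at chr6:142571615-142571864 (minus strand), P2rx7 at chr5:122643677-122643926 (plus strand) and Kcnk12 at chr17:87797995-87798244 (minus strand).
Scn7a: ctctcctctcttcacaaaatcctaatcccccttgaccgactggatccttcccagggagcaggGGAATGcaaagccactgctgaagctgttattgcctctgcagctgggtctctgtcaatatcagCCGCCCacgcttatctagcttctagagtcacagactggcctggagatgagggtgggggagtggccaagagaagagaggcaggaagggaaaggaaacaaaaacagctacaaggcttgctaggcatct
Kcnj8: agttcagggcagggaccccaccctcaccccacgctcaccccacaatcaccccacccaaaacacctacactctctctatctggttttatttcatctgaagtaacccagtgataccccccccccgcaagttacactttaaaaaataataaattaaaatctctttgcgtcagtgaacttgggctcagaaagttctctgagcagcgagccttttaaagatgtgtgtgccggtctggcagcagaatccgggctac
P2rx7: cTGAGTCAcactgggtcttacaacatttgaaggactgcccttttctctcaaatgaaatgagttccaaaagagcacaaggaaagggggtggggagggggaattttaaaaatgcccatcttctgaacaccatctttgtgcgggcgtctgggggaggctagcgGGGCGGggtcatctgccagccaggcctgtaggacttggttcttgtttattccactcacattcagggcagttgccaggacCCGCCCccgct
Kcnk12: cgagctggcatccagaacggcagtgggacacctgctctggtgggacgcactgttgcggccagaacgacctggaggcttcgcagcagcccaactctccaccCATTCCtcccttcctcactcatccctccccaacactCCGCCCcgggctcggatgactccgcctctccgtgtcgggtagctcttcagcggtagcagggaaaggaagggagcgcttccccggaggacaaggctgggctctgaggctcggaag
Kcnj8, whose window has a GC content of 49.2%, held none of these words, and Kcnk12, at 64.8%, held a GC box and a TEAD word. Scn7a also held a GC box and a TEAD word, although it changed in the opposite direction. P2rx7 held an AP-1 word and a GC box on each strand. The called genes without a listed promoter include Cacna1h, Kcnq3 and Piezo2.

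Over all 10 listed promoters, the AP-1 word stood in 0 of 4 genes that were higher and in 2 of 6 that were lower (Clic1 and P2rx7), and in 4.51% of the 9673 listed promoters of the table. The RUNX core was in 0 of 4 and 1 of 6 (Cacna1c), and in 10.3% of all. The GC box was in 3 of 4 and 4 of 6, and in 59.9% of all. The TEAD word was in 1 of 4 and 2 of 6, and in 10.6% of all, and the TATA box was in 0 of 4 and 0 of 6, and in 6.76% of all. These are matches of letters in a short window and say nothing of binding.

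Potassium channel genes went in both directions. Of 27 genes of this family, 15 were tested, and 2 rose (Kcnj8 and Kcnk5), 2 fell (Kcnk12 and Kcnq3) and 11 did not pass. The share that passed was 26.7%, against 17.1% of all tested genes. Kcnj8 encodes Kir6.1, the inwardly rectifying pore of ATP-sensitive potassium channels. It stood at 115, 102 and 136 in Ly6C+ libraries, against 30.5, 40.0 and 19.7 in Ly6C- libraries. All Ly6C+ values lay far above all Ly6C- values. The difference was 3.92-fold (limma: log2 fold change 1.98 with SE 0.26, adjusted p = 0.000367).

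Abcc9 encodes SUR2, the sulfonylurea receptor that surrounds the Kir6 pore, and lies next to Kcnj8 on chromosome 6 with a gap of 16248 bases and on the same strand (Kcnj8 at 142564837 to 142571614, Abcc9 at 142587862 to 142702315). Its values were 15.2, 24.1 and 51.0 in Ly6C+ libraries, against 5.91, 14.5 and 14.4 in Ly6C- libraries. The groups did not overlap, but the Ly6C+ values were widely spread, and Abcc9 did not pass (limma: log2 fold change 1.23 with SE 0.46, adjusted p = 0.100). The 2.60-fold difference became 1.70-fold without Ly6C+ replicate 3. Kcnj8 and Abcc9 are also used as pericyte markers. Of 8 tested markers of pericytes and smooth muscle apart from this pair, none was higher and 7 were lower in Ly6C+ pCAFs. The summed level of the 10 listed was 204 to 269 in Ly6C+ and 1244 to 1809 in Ly6C- libraries. The pericyte gene Higd1b was at 0 in all 6 libraries and Rgs5 at or below 5.24. Ndufa4l2 did not pass. Kcnj8 was higher and the 7 markers that passed were lower in Ly6C+ pCAFs, and the part of pericytes in the result was not tested.

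The other inward rectifiers did not pass. Kcnj2, the gene of Kir2.1, averaged 7.15 ± 2.30 in Ly6C+ and 3.36 ± 2.87 in Ly6C- pCAFs. Kcnj15, of Kir4.2, averaged 44.0 ± 15.4 in Ly6C+ and 48.8 ± 16.5 in Ly6C- pCAFs. Both overlapped between the groups.

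Among the tandem-pore potassium channels, which carry background current, Kcnk5 and Kcnk12 differed in opposite directions. Kcnk5 encodes TASK-2, a channel opened by alkaline pH outside the cell. Its values were 48.2, 20.3 and 27.8 in Ly6C+ libraries, against 11.8, 10.2 and 5.24 in Ly6C- libraries. It was 3.53-fold higher in Ly6C+ pCAFs (limma: log2 fold change 1.69 with SE 0.39, adjusted p = 0.0122), a call that ended without Ly6C+ replicate 1, the highest library (log2 fold change 1.36; adjusted p = 0.0765). Kcnk12 encodes THIK-2, a channel that is largely held inside the cell when expressed alone. It stood at 7.32, 5.26 and 0.773 in Ly6C+ libraries, against 64.0, 43.4 and 34.1 in Ly6C- libraries, on 20 reads in Ly6C+ and 142 in Ly6C- pCAFs. It was 10.6-fold higher in Ly6C- pCAFs (limma: log2 fold change −3.37 with SE 0.53, adjusted p = 0.00109). Kcnk6, the gene of TWIK-2, averaged 18.3 ± 4.83 in Ly6C+ and 12.5 ± 7.39 in Ly6C- pCAFs and did not pass (adjusted p = 0.352 by limma).

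Most voltage-gated potassium channel genes were near the limit of detection. Kcnq3, a subunit of the neuronal M-current channel, stood at 0.610, 0.752 and 0 in Ly6C+ libraries, against 4.92, 11.1 and 13.1 in Ly6C- libraries. With 2 reads in Ly6C+ and 28 in Ly6C- pCAFs the ratio of Ly6C- to Ly6C+ was 20.2, with an exact 95% counting interval of 5.10 to 175. Kcnq3 passed (limma: log2 fold change −2.83 with SE 0.60, adjusted p = 0.00738). Kcnd1, of the A-type channel Kv4.1, averaged 29.8 ± 10.4 in Ly6C+ and 19.1 ± 6.41 in Ly6C- pCAFs and did not pass.

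The 3 tested genes of calcium-activated potassium channels did not pass, while 17.1% of all tested genes did. Kcnma1, the large-conductance BK channel, averaged 26.9 ± 5.76 in Ly6C+ and 16.6 ± 6.57 in Ly6C- pCAFs, and the small-conductance channel gene Kcnn1 12.6 ± 1.91 in Ly6C+ and 12.9 ± 6.84 in Ly6C- pCAFs. Kcnn4, of the intermediate-conductance channel KCa3.1, rested on 23 reads in Ly6C+ and 26 in Ly6C- pCAFs. Of the auxiliary subunits, Kcne4 had the highest level, with 40.3, 81.9 and 30.9 in Ly6C+ libraries, against 130, 125 and 45.9 in Ly6C- libraries. Ly6C- replicate 3 lay within the Ly6C+ range. Kcne4 did not pass (limma: log2 fold change −0.94, adjusted p = 0.174), but passed without that library (−1.43; adjusted p = 0.0142). Kcnip3, which encodes the calcium-binding protein DREAM, was at 33.5, 27.8 and 29.4 in Ly6C+ libraries, against 8.86, 22.1 and 28.8 in Ly6C- libraries, and it missed the threshold. Here too Ly6C- replicate 3 lay among the Ly6C+ values.

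Among the sodium channel genes, Scn7a was higher in Ly6C+ pCAFs. Scn7a encodes Nax, an atypical member of the family that responds to the sodium concentration more than to voltage. It stood at 54.3, 44.3 and 37.1 in Ly6C+ libraries, against 1.97, 0 and 5.24 in Ly6C- libraries, on 196 reads in Ly6C+ and 6 in Ly6C- pCAFs. This was the largest upward difference among the tested channel genes, 18.8-fold (limma: log2 fold change 4.11 with SE 0.57, adjusted p = 0.000502), and 46.0-fold when Ly6C- replicate 3 was left out. Scn7a is also known from glia and Schwann cells. The Schwann gene Sox10 was at or below 2.55 in all libraries, and the summed level of the 5 Schwann and nerve markers in the table was 58.0 to 84.9 in Ly6C+ and 104 to 169 in Ly6C- libraries. The highest of them, Ncam1, passed as lower in Ly6C+ pCAFs (43.8 in Ly6C+ against 131 in Ly6C-). Mbp (16.8 against 7.82) and S100b (7.10 against 3.36) leaned the other way without passing. The part of Schwann cells and nerve in the result was not tested.

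Of 7 tested voltage-gated calcium channel genes, 3 passed, all lower in Ly6C+ pCAFs. Over all tested genes, 7.66% were lower and 9.41% higher. Each of the 3 calls ended in some alternatives. Cacna1a leaned the other way without passing (1.75-fold higher in Ly6C+ pCAFs). So did Cacna1d, which lay under the test level (18 reads in Ly6C+ and 3 in Ly6C- pCAFs). Cacna1c encodes Cav1.2, the L-type pore of smooth and cardiac muscle. It stood at 14, 19.5 and 17 in Ly6C+ libraries, against 29.5, 44.2 and 31.5 in Ly6C- libraries, 2.08-fold higher in Ly6C- pCAFs (limma: log2 fold change −1.0 with SE 0.27, adjusted p = 0.0253). The call ended when Ly6C+ replicate 1 (adjusted p = 0.0973), Ly6C+ replicate 3 (0.0577) or Ly6C- replicate 2 (0.135) was left out. Markers of pericytes and smooth muscle moved with it, as given above, and their part in the result was not tested.

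Cacna1h encodes the T-type pore Cav3.2. Its values were 0, 3.01 and 0.773 in Ly6C+ libraries, against 20.7, 6.81 and 6.56 in Ly6C- libraries. It passed (limma: log2 fold change −2.50 with SE 0.67, adjusted p = 0.0251) on 5 reads in Ly6C+ and 34 in Ly6C- pCAFs. The difference of 9.0-fold became 29.4-fold when Ly6C+ replicate 2 was left out and 5.30-fold when Ly6C- replicate 1 was. The call ended without Ly6C+ replicates 1 or 3 or Ly6C- replicates 1 or 2 (adjusted p = 0.0881, 0.0657, 0.0905 and 0.0525), and with libraries thinned to equal depth (0.0772). The 3′ end of Cacna1h overlaps Tpsg1 on the other strand, and the handling of strands was not given in the sources used here, so reads of the pair cannot be told apart.

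Cacna1g, the gene of the T-type pore Cav3.1, had the highest level of these pores, at 98.8, 147 and 84.2 in Ly6C+ libraries, against 104, 149 and 167 in Ly6C- libraries. It overlapped between the groups and did not pass (limma: log2 fold change −0.36 with 95% interval −0.90 to 0.19, adjusted p = 0.396). Cacna1a, of the P/Q-type pore Cav2.1, averaged 21.7 ± 5.10 in Ly6C+ and 12.4 ± 5.06 in Ly6C- pCAFs and did not pass.

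Among the auxiliary subunits, Cacng7 encodes a member of the γ family that is better known as a regulator of glutamate receptors. It stood at 10.4, 15.8 and 13.1 in Ly6C+ libraries, against 32.5, 24.7 and 24.9 in Ly6C- libraries, 2.09-fold higher in Ly6C- pCAFs (limma: log2 fold change −1.02 with SE 0.28, adjusted p = 0.0305). The call ended in DESeq2 (adjusted p = 0.0787), without Ly6C+ replicates 1 or 3 (0.113 and 0.0662) and without Ly6C- replicates 1 or 2 (0.0939 and 0.0776). The β subunits, which bring the pore to the membrane, did not pass. Cacnb1 was at 28.1, 21.0 and 17.8 in Ly6C+ libraries, against 41.3, 31.5 and 36.7 in Ly6C- libraries, without overlap (adjusted p = 0.0943 by limma), and Cacnb3 averaged 111 ± 21.3 in Ly6C+ and 117 ± 17.6 in Ly6C- pCAFs. When libraries were scaled to their totals, Cacnb1 passed (log2 fold change −0.89; adjusted p = 0.0322).

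**Figure D2:**
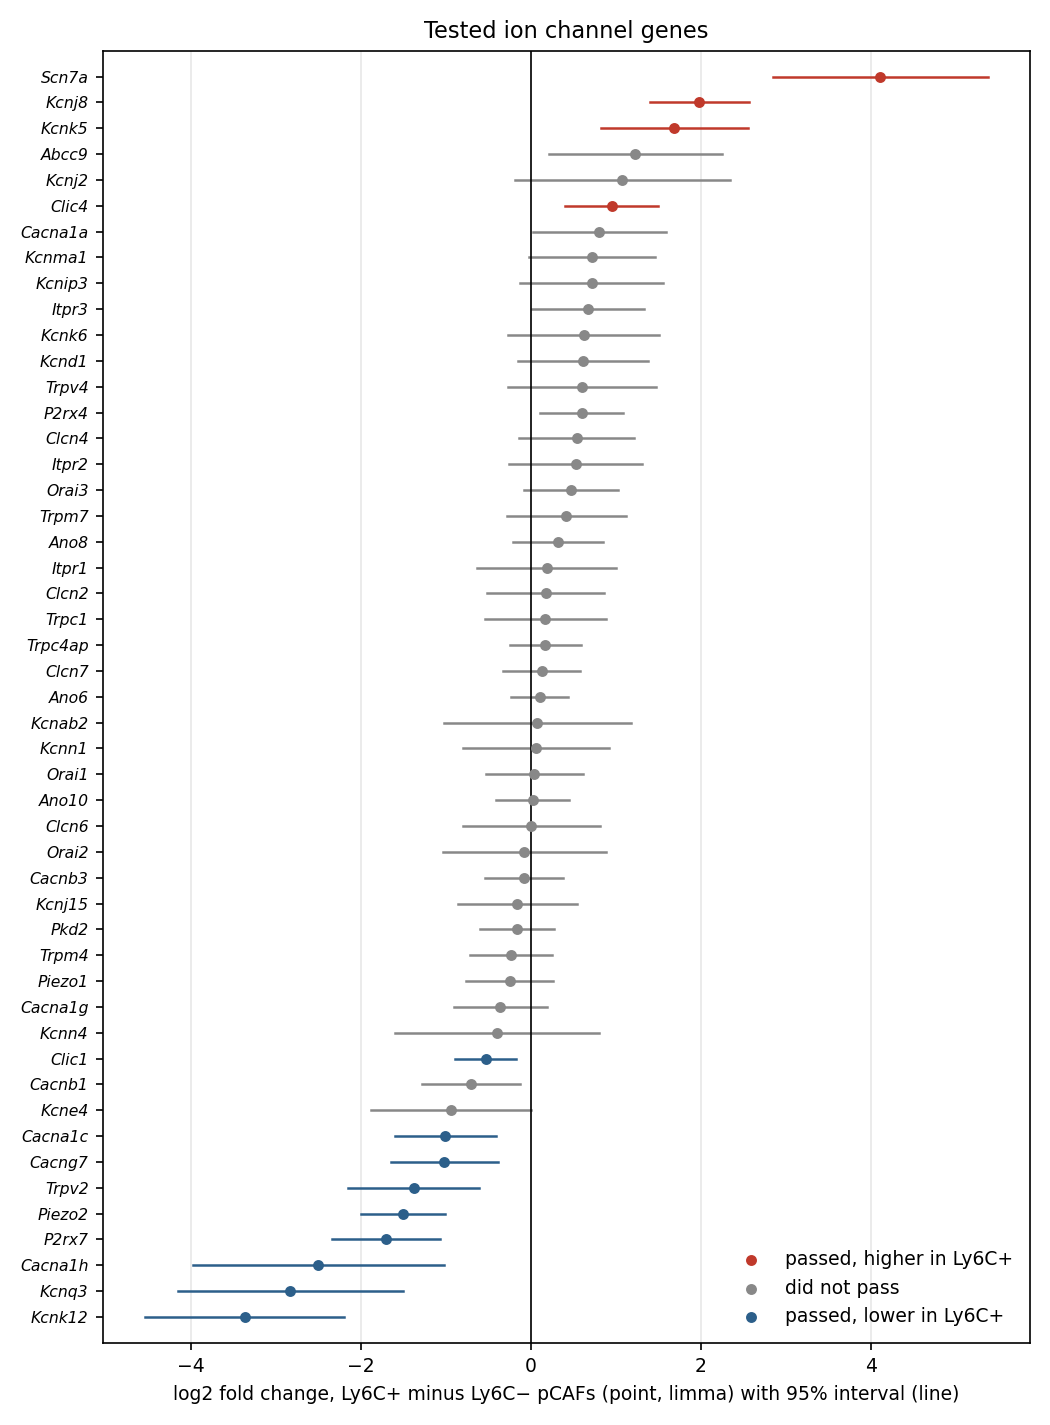
Log2 fold change, Ly6C+ minus Ly6C- pCAFs (point, limma), with its 95% interval (line) for 49 of the tested ion channel genes, in red where a gene passed and was higher, in blue where it passed and was lower and in grey where it did not pass. Scn7a at 4.11 and Kcnk12 at −3.37 lie at the ends, and 16 of the 36 grey intervals lie within 1 log2 unit on either side of 0.

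The force-gated Piezo channels showed unequal differences. Piezo2, known from touch receptors and sensory neurons, stood at 32.9, 26.3 and 41.7 in Ly6C+ libraries, against 91.5, 90.2 and 106 in Ly6C- libraries. The groups were far apart, 2.85-fold higher in Ly6C- pCAFs (limma: log2 fold change −1.50 with SE 0.22, adjusted p = 0.000743). Piezo1, the widely expressed member, was at 174, 163 and 130 in Ly6C+ libraries, against 240.1, 197 and 131 in Ly6C- libraries. It overlapped and did not pass (limma: log2 fold change −0.25 with 95% interval −0.76 to 0.26, adjusted p = 0.547). Piezo2 made up 15.9%, 13.9% and 24.3% of the pair's normalised counts in Ly6C+ libraries, against 27.6%, 31.4% and 44.7% in Ly6C- libraries. The 3′ end of Piezo1 overlaps Ctu2 on the other strand, so its level is uncertain.

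Of 6 tested TRP channel genes, which include the polycystin gene Pkd2, 1 fell and none rose. Over all tested genes, 7.66% fell and 9.41% rose. Trpv2, a calcium-permeable channel that responds to noxious heat and membrane stretch in rodents, stood at 6.10, 12.8 and 8.50 in Ly6C+ libraries, against 25.6, 30.6 and 18.4 in Ly6C- libraries. It was 2.72-fold higher in Ly6C- pCAFs (limma: log2 fold change −1.38 with SE 0.35, adjusted p = 0.0187). The call ended when Ly6C+ replicate 1 (adjusted p = 0.0787), Ly6C+ replicate 3 (0.0508) or Ly6C- replicate 2 (0.0997) was left out. Trpv4, a channel gated by osmotic swelling and known in fibroblasts, was at 21.3, 16.5 and 13.9 in Ly6C+ libraries, against 17.7, 5.95 and 11.8 in Ly6C- libraries, and it missed the threshold (adjusted p = 0.361 by limma).

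Pkd2, a calcium-permeable channel of cilia and endoplasmic reticulum, was the most abundant TRP member, with 183 ± 38.5 in Ly6C+ and 203 ± 25 in Ly6C- pCAFs (log2 difference −0.16 by limma, 95% interval −0.60 to 0.27). Trpm7, a channel fused to a kinase, averaged 54.5 ± 13.8 in Ly6C+ and 42.0 ± 17.2 in Ly6C- pCAFs. The sodium-conducting Trpm4 averaged 34.8 ± 1.40 in Ly6C+ and 41.2 ± 5.70 in Ly6C- pCAFs, and Trpc1 16.0 ± 4.96 in Ly6C+ and 13.9 ± 2.47 in Ly6C- pCAFs. None of these passed.

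The ATP-gated receptors P2rx7 and P2rx4 lie next to each other on chromosome 5, on the same strand with a gap of 16112 bases. P2rx7 opens at high ATP and is known for driving inflammasome activation in macrophages. It stood at 8.54, 9.02 and 12.4 in Ly6C+ libraries, against 36.4, 27.2 and 40.6 in Ly6C- libraries, 3.49-fold higher in Ly6C- pCAFs (limma: log2 fold change −1.70 with SE 0.29, adjusted p = 0.00192). The summed level of 7 macrophage markers in the table was 118 to 371 in Ly6C+ and 55.1 to 148 in Ly6C- libraries. These ranges overlap. Of the 5 tested markers, 1 passed (Lyz2, higher in Ly6C+ pCAFs, 130 in Ly6C+ against 10.4 in Ly6C-). The 4 that did not pass include Tyrobp (14.8 in Ly6C+ against 4.50 in Ly6C- pCAFs) and Csf1r (30.3 against 26.9). The part of macrophages in the result was not tested. P2rx4, which opens at lower ATP and resides largely in lysosomes, was at 171, 129 and 135 in Ly6C+ libraries, against 118, 70.6 and 102 in Ly6C- libraries. Its groups did not overlap, but it did not pass (limma: log2 fold change 0.60 with 95% interval 0.11 to 1.09, adjusted p = 0.0978). Among the fits that left out a library, it passed only without Ly6C- replicate 1 (0.76; adjusted p = 0.0465). P2rx7 made up 4.75%, 6.52% and 8.38% of the pair's normalised counts in Ly6C+ libraries, against 23.6%, 27.8% and 28.4% in Ly6C- libraries.

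The CLIC genes were the most abundant of the set. CLIC proteins are mostly soluble and can insert into membranes, and their activity as chloride channels in cells is debated. Clic4, which is known to be induced in myofibroblasts, stood at 632, 577 and 822 in Ly6C+ libraries, against 292, 271 and 522 in Ly6C- libraries. It was 1.87-fold higher in Ly6C+ pCAFs (limma: log2 fold change 0.95 with SE 0.25, adjusted p = 0.0218). Of the pericyte and smooth muscle markers, none of which was higher, Acta2 (7.32 in Ly6C+ against 103 in Ly6C- pCAFs) and Cnn1 (4.35 against 350) were lower. Their part in the result was not tested. Clic1 stood at 781, 788 and 899 in Ly6C+ libraries, against 1351, 1045 and 1179 in Ly6C- libraries, 1.45-fold higher in Ly6C- pCAFs (limma: log2 fold change −0.53 with SE 0.16, adjusted p = 0.0455). Ly6C- replicate 3 had the Clic4 level closest to the Ly6C+ libraries.

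Both calls were lost in several alternatives. That of Clic4 ended without the mean-variance trend (adjusted p = 0.0803), without Ly6C+ replicates 1 or 3 (0.0658 and 0.0847) and without Ly6C- replicates 1 or 2 (0.0514 and 0.108). That of Clic1 ended without a filter on the mean (adjusted p = 0.0519), without the trend (0.13), with libraries thinned to equal depth (0.0697) and without any 1 of the 6 libraries, with adjusted p of 0.134, 0.147 and 0.0533 without Ly6C+ replicates 1, 2 and 3, and 0.142, 0.0683 and 0.0703 without Ly6C- replicates 1, 2 and 3. Within each library, where no scaling enters, Clic4 made up 44.7%, 42.3% and 47.8% of the pair's counts in Ly6C+ libraries, against 17.8%, 20.6% and 30.7% in Ly6C- libraries.

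**Figure D3:**
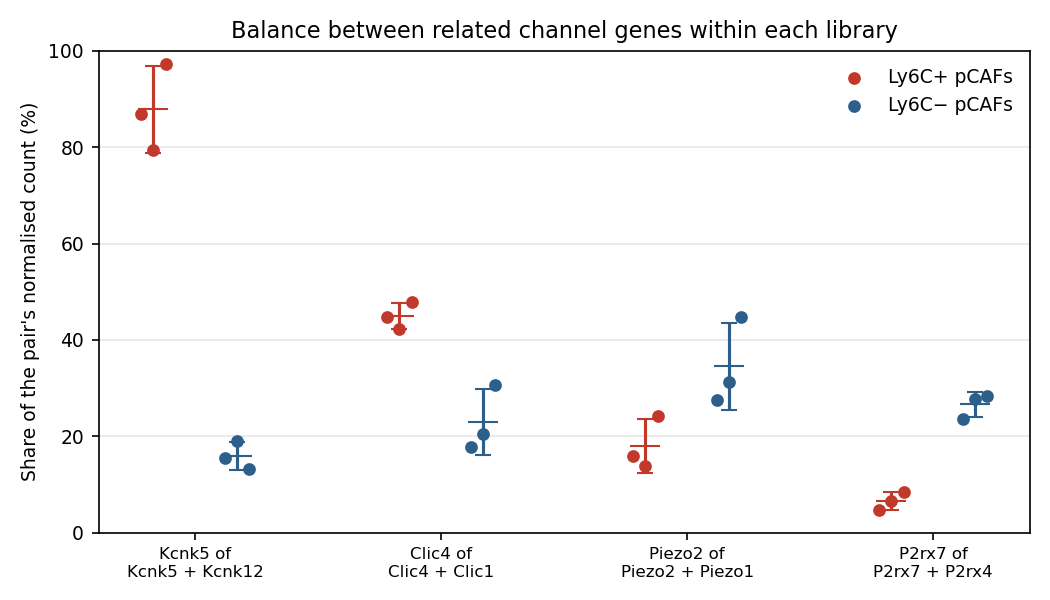
Share of a pair's normalised count held by one of its genes within each library (points), with mean and SD (n = 3 libraries per group), Ly6C+ pCAFs in red left of Ly6C- pCAFs in blue. The shares of Kcnk5 and Clic4 are higher and those of Piezo2 and P2rx7 lower in every Ly6C+ library than in any Ly6C- library. The pairs were chosen after the values were seen.

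The share of Kcnk5 in the summed counts of Kcnk5 and Kcnk12 was 86.8%, 79.4% and 97.3% in Ly6C+ libraries, against 15.6%, 19.1% and 13.3% in Ly6C- libraries. As these pairs were picked for genes that differ, the shares are a description and were not tested.

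None of the 7 tested anoctamin and CLC genes passed, while 17.1% of all tested genes did. Ano6 encodes a calcium-activated phospholipid scramblase and ion channel. It stood at 359, 309 and 335 in Ly6C+ libraries, against 322, 303 and 304 in Ly6C- libraries (log2 fold change 0.11, 95% interval −0.23 to 0.44). Ano10 averaged 122 ± 26.2 in Ly6C+ and 119 ± 4.49 in Ly6C- pCAFs, and Ano8 94.2 ± 14.8 in Ly6C+ and 76.6 ± 23.5 in Ly6C- pCAFs. The 3′ end of Ano8 overlaps Dda1 on the other strand, so its level is uncertain. Ano1, the epithelial calcium-activated chloride channel, had 3 reads in Ly6C+ and 10 in Ly6C- pCAFs. Among the CLC genes, Clcn7, a chloride-proton exchanger of lysosomes, averaged 81.5 ± 9.34 in Ly6C+ and 75.0 ± 13.1 in Ly6C- pCAFs (log2 difference 0.13 by limma, 95% interval −0.32 to 0.58).

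Store-operated entry and release of calcium were represented by 3 Orai and 3 inositol trisphosphate receptor genes, none of which passed. Over all tested genes, 17.1% passed. Orai1 was at 57.3, 40.6 and 31.7 in Ly6C+ libraries, against 44.3, 34.0 and 44.6 in Ly6C- libraries (log2 fold change 0.04, 95% interval −0.53 to 0.62). Orai3 was the most abundant Orai gene, at 75.8 ± 21.7 in Ly6C+ and 53.6 ± 9.89 in Ly6C- pCAFs, and Orai2 the least, at 11.7 ± 5.55 in Ly6C+ and 11.7 ± 3.43 in Ly6C- pCAFs. Itpr3 was at 56.1, 40.6 and 51.0 in Ly6C+ libraries, against 48.2, 23.8 and 23.6 in Ly6C- libraries. Ly6C- replicate 1 reached the Ly6C+ range, and Itpr3 passed only without that library among the alternatives (log2 fold change 1.01; adjusted p = 0.0198, against 0.161 with all 6).

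The sensor that opens Orai channels did differ. Stim1, which lies outside the family rule, stood at 122, 135 and 115 in Ly6C+ libraries, against 69.9, 73.2 and 53.8 in Ly6C- libraries, 1.89-fold higher in Ly6C+ pCAFs (limma: log2 fold change 0.92 with SE 0.19, adjusted p = 0.00706). It passed in each of 21 alternative settings. It belongs to a list of calcium sensors, effectors and mitochondrial uptake genes. Of 37 tested, 10 were higher, 3 lower and 24 did not pass (median log2 fold change 0.15). The share that passed was 35.1%, against 17.1% of all tested genes.

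The members of that list with the smallest p were Jph2, Rcan2, Mrvi1 and Plcb4. Jph2, a junctophilin that ties the plasma membrane to the calcium store in muscle, stood at 11.0, 17.3 and 6.18 in Ly6C+ libraries, against 96.5, 107 and 131 in Ly6C- libraries, 9.72-fold higher in Ly6C- pCAFs (limma: log2 fold change −3.26 with SE 0.33, adjusted p = 4.90e-05). Mrvi1, whose product inhibits the inositol trisphosphate receptor in smooth muscle, was 6.20-fold higher in Ly6C- pCAFs (4.93 ± 2.73 in Ly6C+ against 30.6 ± 8.81 in Ly6C-). Markers of pericytes and smooth muscle moved with these genes, and their part in the result was not tested. Rcan2, a regulator of the calcium-activated phosphatase calcineurin, was higher by 5.09-fold in Ly6C+ pCAFs (47.1 ± 16.8 in Ly6C+ against 9.24 ± 3.62 in Ly6C-), and Plcb4, a phospholipase that makes inositol trisphosphate, 3.88-fold higher (23.8 ± 6.38 in Ly6C+ against 6.14 ± 0.362 in Ly6C-).

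Of the 11 calcineurin, NFAT and RCAN genes of the list, a subset chosen after the values were seen, 6 were higher, none lower and 5 did not pass. Over all tested genes, 9.41% were higher and 7.66% lower. NFAT factors are dephosphorylated by calcineurin when calcium rises. Nfatc2 stood at 18.3, 30.1 and 46.4 in Ly6C+ libraries, against 7.87, 6.81 and 9.18 in Ly6C- libraries, 3.97-fold higher, and Nfatc1 at 113, 138 and 111 in Ly6C+ libraries, against 69.9, 71.5 and 77.4 in Ly6C- libraries. The call of Nfatc1 (adjusted p = 0.0189 by limma) ended without Ly6C+ replicate 2 (0.101), without Ly6C- replicate 2 (0.0768) and with libraries scaled to their totals (0.066). The calls of Ppp3ca, Ppp3cb and Rcan1 (adjusted p = 0.0458, 0.0417 and 0.0335) ended in 10, 7 and 7 of 21 alternatives, among them the fits without Ly6C+ replicates 1 or 3 or Ly6C- replicate 2, with adjusted p of up to 0.19, 0.149 and 0.124. Nfatc4, the most abundant NFAT gene here, did not pass (528 ± 50.3 in Ly6C+ and 513 ± 53.3 in Ly6C- pCAFs). Early response genes that tissue dissociation can induce moved with this subset, 15 of 19 higher (78.9%, against 9.41% of all tested genes) and none lower. Their part in the result was not tested.

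**Figure D4:**
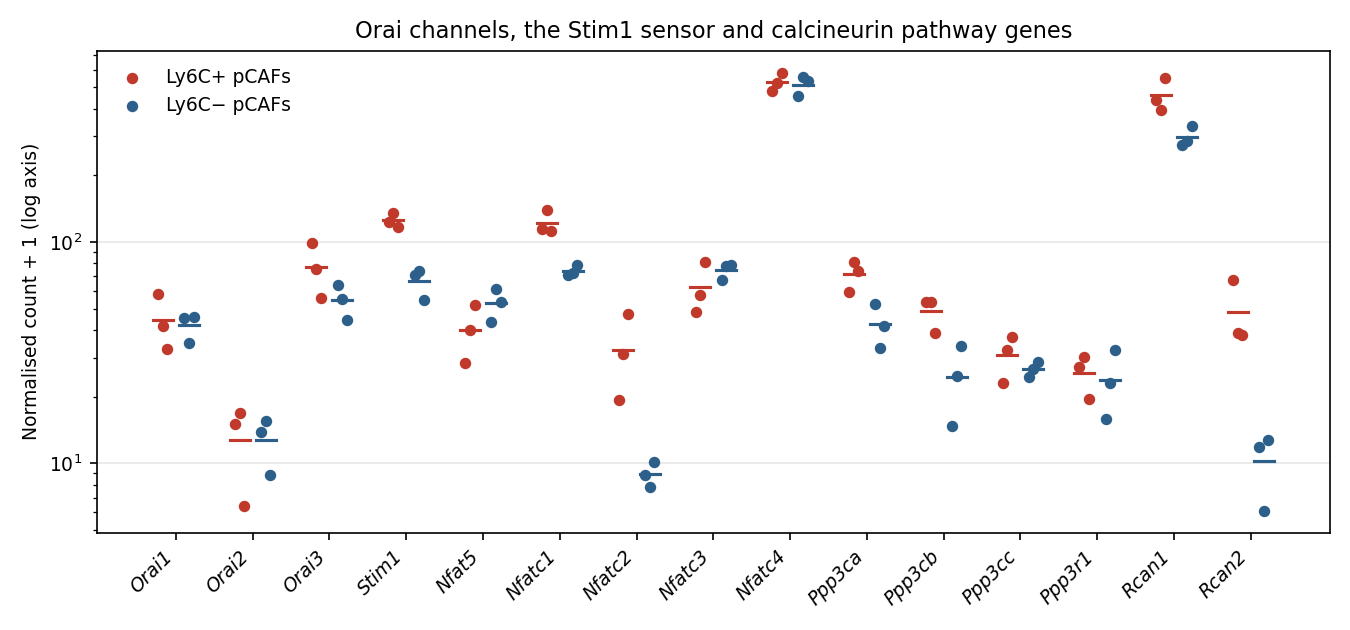
Normalised count plus 1 of each library (points, log axis) and group mean (bar) for the 3 Orai channel genes, Stim1 and the 11 calcineurin, NFAT and RCAN genes, Ly6C+ pCAFs in red left of Ly6C- pCAFs in blue. The Orai genes overlap between the groups, while Stim1 and the 6 genes of the calcineurin subset that passed (Nfatc1, Nfatc2, Ppp3ca, Ppp3cb, Rcan1 and Rcan2) do not. Over all tested genes, the groups did not overlap for 33.1%.

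Other channel genes outside the families made up a further list. Of 25 tested, 4 were higher, 3 lower and 18 did not pass (median log2 fold change 0.11). The share that passed was 28.0%, against 17.1% of all tested genes. Hcn4, the pacemaker channel of the heart, stood at 62.8, 33.8 and 41.7 in Ly6C+ libraries, against 5.91, 7.66 and 2.62 in Ly6C- libraries, 8.55-fold higher in Ly6C+ pCAFs (limma: log2 fold change 2.93 with SE 0.39, adjusted p = 0.000353). Lrrc8d, a subunit of the volume-regulated anion channel, was higher by 6.15-fold in Ly6C+ pCAFs (16.9 ± 5.65 in Ly6C+ against 2.75 ± 1.12 in Ly6C-). Panx1, which releases ATP, was 1.84-fold higher (217 ± 10.3 in Ly6C+ against 118 ± 9.19 in Ly6C-). Vdac2, a channel of the outer mitochondrial membrane, was 1.93-fold higher in Ly6C- pCAFs (232 ± 32.4 in Ly6C+ against 447 ± 120 in Ly6C-), and missed the threshold without Ly6C+ replicate 1 (adjusted p = 0.0537). Of 12 tested pumps and exchangers, 1 was higher and 11 did not pass (8.33% passed, against 17.1% of all tested genes). The one that rose was Atp1b1, a β subunit of the sodium pump, at 9.15, 9.77 and 13.9 in Ly6C+ libraries, against 2.95, 1.70 and 3.93 in Ly6C- libraries, and its call (adjusted p = 0.0255 by limma) ended in 6 of 20 alternatives, among them the fits without Ly6C+ replicates 1, 2 or 3 or Ly6C- replicate 2, with an adjusted p of up to 0.125.

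The 25 members under the test level hold a few with separate groups. With at least 10 reads in all, 8 did not overlap between the groups, 6 of them lower and 2 higher in Ly6C+ pCAFs. They are 61.5% of the 13 such members, while the groups did not overlap for 25.7% of all 1839 genes under the test level with at least 10 reads. Trpc6, a diacylglycerol-gated calcium channel known in myofibroblast differentiation, had no read in Ly6C+ and stood at 2.95, 7.66 and 11.8 in Ly6C- libraries. On 21 reads it was at least 10.1-fold lower in Ly6C+ pCAFs, with the floor set at 3 reads over the group. Kcnu1, a potassium channel known from sperm, stood at 3.66, 3.76 and 4.64 in Ly6C+ and had no read in Ly6C- libraries. On 17 reads its level in Ly6C+ pCAFs was at least 3.93-fold higher. Both passed when no level was required (adjusted p = 0.00251 and 0.00349 by limma).

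The other 6 did not pass in that fit. Cacna1d, of the L-type pore Cav1.3, had 18 reads in Ly6C+ and 3 in Ly6C- pCAFs (ratio 4.16, 95% counting interval 1.21 to 22.0). Leaving out Ly6C- replicate 1 gave a ratio of mean values of 6.58 for Cacna1d, and leaving out Ly6C- replicate 2 gave 2.63. Its 3′ end overlaps Chdh on the other strand. Kcng2, Kcns3, Kcnh1 and Trpm6 had fewer reads in Ly6C+ pCAFs than in Ly6C- pCAFs (9 against 19, 6 against 14, 4 against 15 and 8 against 13). Fewer than 10 reads in all were found for 12 members, and P2rx1 had none. At this depth a difference in such genes was not detectable.

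Of the 37 members that did not pass, 16 had a 95% interval of the log2 fold change that stayed within 1 unit on either side of 0, so a difference of more than 2-fold lies outside those intervals. They include Ano6, Ano10, Pkd2, Piezo1, Cacna1g, Cacnb3, Orai1, Clcn7 and Trpm4. For the remaining 21 the interval reaches past 1 unit in at least one direction. By level, the 8 most abundant members held 64.9% of the normalised counts of the set. In falling order of the mean over the 6 libraries these included Clic1, Clic4, Trpc4ap, Ano6, Pkd2, Piezo1 and Cacna1g. Trpc4ap averaged 367 ± 52.7 in Ly6C+ and 326 ± 62.3 in Ly6C- pCAFs and did not pass (adjusted p = 0.614 by limma), and its 3′ end overlaps Myh7b on the other strand. The share of members that passed was 3 of 17 with a mean of 5 to 20, 8 of 23 with a mean of 20 to 100 and 3 of 11 with a higher mean. These are 17.6%, 34.8% and 27.3% of the members, against 12.6%, 14.9% and 25.9% over all tested genes. The share of members was near that of all genes at the highest level and above it at a mean of 20 to 100. These shares were not tested.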

How the data were processed

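The authors deposited 1 table of signal values, normalised counts per gene in 6 libraries. Per the submitters' processing notes, bcl2fastq, STAR 2.4.2a and HTSeq on mm10 were used. How strands and molecular tags were handled, which annotation was counted, how size factors were made and whether genes were filtered is not given in the sources used here. All values of a library were whole multiples of 1 step (100% within a tolerance of 0.001), so whole reads were recovered for count models and counting intervals, which cover counting error only.

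Values were tested as log2(value + 1) with limma 3.58.1 (R 4.3.3; trend in the prior, no block, Benjamini-Hochberg adjustment) over 9646 genes with a mean of at least 5. Alternatives were edgeR 4.0.16 (1721 genes and 14 members passed) and DESeq2 1.42.0 on recovered reads, other pseudocounts, filters, scalings and priors, the replicate block, leaving out each library, and thinning to 1176909 reads, which was added after the data were seen. Coordinates are from GENCODE M21 (mm10), which matched all 76 members. Promoters are from RefSeq (GRCm38.p6; 56 of 76 matched by symbol, the first listed start). The members, gene lists and tests were chosen with earlier results of these data known. Some genes are counted but not reported here by name. Otherwise, named are all members that passed, the 8 most abundant, low members with separate groups and at least 10 reads, partner subunits, and up to 4 genes per further list, by the rule for named genes. Other named genes, which complete families or the calcineurin subset, were chosen after their values were seen. No 2 libraries of a group agreed within sampling noise. Python 3.11.15 was used for tables and figures.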

Additional observations from a re-analysis of the deposited data

How the results depend on the processing

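Of the 14 members that passed, 7 passed in every alternative in which they could be tested (among them Kcnj8, Kcnk12, Kcnq3, P2rx7, Piezo2 and Scn7a), and none of the 14 changed direction. With 1 library left out, 7 to 14 members passed (3 to 6 higher, 4 to 9 lower), of all tested genes 1121 to 1728 (609 to 987 higher, 469 to 741 lower), and of the further calcium, channel and pump genes 12 to 19 (8 to 14 higher, 4 to 5 lower), against 14, 1647 and 21 with all 6. The lowest member counts were 7 without Ly6C+ replicate 1 and 8 without Ly6C+ replicate 3 or Ly6C- replicate 2, where fewer libraries were fitted. Each library scaled to its own total moved the median of all genes by −0.19 and called 1211 genes lower against 739, so that 37.4% of calls were higher against 55.1%, while members gave 5 higher and 10 lower. The replicate block called 17 members in limma and 17 in edgeR. It also called more of all tested genes, 2088 in limma and 2112 in edgeR, against 1647 and 1721 with no block. It added Abcc9 (limma adjusted p = 0.0181), Kcne4 (0.0187) and P2rx4 (0.0266). Deviations of same-numbered libraries correlated at 0.129, 0.0518 and 0.167, each the highest for its number, and the labels give no shared source, so the numbers were not taken to pair the libraries. Thinned to equal depth, 12 members and 1479 of all tested genes passed, and with no filter 15 and 1806. The 25 members under the test level were too shallow for the main test.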
